A study of Mus musculus with 12 samples.

Results

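The 10 replication licensing genes Mcm2, Mcm3, Mcm4, Mcm5, Mcm6, Mcm7, Mcm10, Cdc6, Cdt1, and Orc1 were followed across 3 groups of cultured myeloid-derived suppressor cells (MDSCs), which are immunosuppressive myeloid cells. They were chosen by symbol, as 10 of the 35303 gene symbols in a table of raw RNA-seq counts, and all 10 had enough counts to be tested. All groups derived from bone marrow of wild-type female C57BL/6 mice aged 6 to 10 weeks, grown for 3 days with IL-6 and GM-CSF, purified as CD11b+Gr1+ cells, and then given 24 more hours of culture, in which IL-6 was present at 40 ng/ml. The groups were unmodified MDSCs (MDSC), MDSCs carrying blank polymer nanoparticles (NPs) made of PLGA on their surface (MDSC-NP-Blk), and MDSCs carrying PLGA NPs loaded with rapamycin (CITED), with 4 libraries each. Rapamycin is an inhibitor of the mTOR kinase, which couples cell growth to nutrients and growth factors. The NPs were attached by click chemistry between azido groups on the cells and DBCO on the particles, and whether the unmodified cells also carried azido groups is not stated in the sources used here. Whether the libraries of a group came from separate mice or cultures is given only as independent replicates, so p-values measure the spread between these libraries.

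Licensing is the step in which a cell prepares its origins of replication before S phase. The origin recognition complex, of which Orc1 is the largest subunit, binds the origin and recruits Cdc6, and Cdt1 then brings the ring-shaped Mcm2 to Mcm7 complex, the core of the replicative helicase, so that it is loaded around DNA. Mcm10 acts later, when the loaded helicase is activated. Transcription of many of these genes is driven by E2F factors and rises as cells enter the cycle, so they are widely read as genes of proliferating cells, whereas terminally differentiated granulocytes no longer divide.

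All 10 genes lie apart from each other in the mouse genome (build GRCm39). The genes of the ring are Mcm2 on chromosome 6 (88860452 to 88875762, minus strand), Mcm3 on chromosome 1 (20870791 to 20890536, minus), Mcm4 on chromosome 16 (15440211 to 15455264, minus), Mcm5 on chromosome 8 (75836140 to 75856231, plus), Mcm6 on chromosome 1 (128259311 to 128287516, minus), and Mcm7 on chromosome 5 (138162844 to 138170684, minus). Mcm10 lies on chromosome 2 (4994516 to 5017629, minus), Cdc6 on chromosome 11 (98798507 to 98814766, plus), Cdt1 on chromosome 8 (123294703 to 123300293, plus), and Orc1 on chromosome 4 (108436540 to 108473245, plus). Mcm7 overlaps Ap4m1 and Cops6 on the opposite strand and holds the microRNA genes Mir106b, Mir93, and Mir25 on its own strand. Orc1 overlaps Prpf38a on the opposite strand. Whether the libraries kept strand is not stated in the sources used here, and without it reads from the overlapping stretches cannot be told apart.

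The promoters of 4 of the genes are shown because these genes span the range of the changes described below, and they were picked after the values were seen. Mcm5 had the largest change among the ring genes, Mcm7 was the ring gene whose window held neither of the motifs marked, Cdc6 had the largest change of all 10, and Cdt1 the smallest. Each sequence runs 5′ to 3′ on the strand of the gene, from 250 bases before to 50 bases after the first base of the canonical transcript. Capitals mark the E2F motifs TTCCCGC and TTGGCGC and the CCAAT box, on either strand.
Mcm5, chr8:75835890-75836189, plus strand: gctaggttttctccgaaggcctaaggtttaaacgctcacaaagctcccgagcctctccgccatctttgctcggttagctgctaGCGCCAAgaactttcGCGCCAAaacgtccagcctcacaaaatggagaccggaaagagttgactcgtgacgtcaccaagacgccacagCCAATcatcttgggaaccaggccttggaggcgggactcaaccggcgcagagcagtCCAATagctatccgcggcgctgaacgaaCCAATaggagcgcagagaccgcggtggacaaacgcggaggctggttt
Mcm7, chr5:138170635-138170934, minus strand: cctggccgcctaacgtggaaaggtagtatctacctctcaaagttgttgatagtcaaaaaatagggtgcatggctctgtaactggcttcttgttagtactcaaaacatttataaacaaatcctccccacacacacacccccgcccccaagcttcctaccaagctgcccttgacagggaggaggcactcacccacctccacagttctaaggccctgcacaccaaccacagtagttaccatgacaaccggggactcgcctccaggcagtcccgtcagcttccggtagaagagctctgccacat
Cdc6, chr11:98798377-98798676, plus strand: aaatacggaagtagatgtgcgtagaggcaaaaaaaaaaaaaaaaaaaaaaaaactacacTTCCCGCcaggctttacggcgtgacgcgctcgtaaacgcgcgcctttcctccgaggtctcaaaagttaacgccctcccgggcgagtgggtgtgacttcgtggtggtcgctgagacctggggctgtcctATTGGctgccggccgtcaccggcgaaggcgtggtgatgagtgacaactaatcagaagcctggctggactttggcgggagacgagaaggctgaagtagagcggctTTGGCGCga
Cdt1, chr8:123294498-123294797, plus strand: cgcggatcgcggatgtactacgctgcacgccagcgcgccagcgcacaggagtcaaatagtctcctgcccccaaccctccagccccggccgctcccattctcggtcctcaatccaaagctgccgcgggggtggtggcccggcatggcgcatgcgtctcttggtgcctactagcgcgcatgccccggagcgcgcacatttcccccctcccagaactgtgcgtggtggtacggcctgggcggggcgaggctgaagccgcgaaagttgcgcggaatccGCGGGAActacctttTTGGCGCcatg

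With the first transcribed base counted as 1, the Mcm5 window held TTGGCGC on its minus strand at -167 and -152. The Cdc6 window held TTCCCGC at -191 and TTGGCGC at 42, both on the plus strand. The Cdt1 window held TTCCCGC on the minus strand at 25 and TTGGCGC on the plus strand at 40. One or both E2F motifs were found in 6 of the 10 windows (Mcm3, Mcm4, Mcm5, Mcm6, Cdc6, and Cdt1), beside 9.202% of 17648 promoters of the same length. The CCAAT box was in 8 of the 10 windows (all but Mcm7 and Cdt1), beside 39.098% of promoters, and the Sp1 motif GGGCGG was in 6, beside 47.376%. The cell cycle elements TTTGAA and TTCGAA were in 1 (Mcm2) and 0 of the 10 windows, beside 15.752% and 2.091%. Matches overlapped only in the Mcm3 window, with TTGGCGC at 40 on the plus strand and at 43 on the minus strand. A match describes the letters of the window and not a bound site.

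The libraries held between 20604800 and 37855500 counts, of which 5918 to 26111 fell on the 10 genes. The culture was checked against marker genes. The 10 markers of MDSCs, among them Itgam, Ly6g, S100a8, and S100a9, summed to CPM values (counts scaled to a fixed library size) of 24866 to 28337 in MDSC, 34286 to 36585 with blank NPs, and 27051 to 30818 in the CITED libraries. Most of this sum was S100a8 and S100a9. At an adjusted p of 0.05 in edgeR's quasi-likelihood test, 6 of the 10 were higher in CITED than in MDSC and 2 lower. Those 2 were Ly6c2 and Ly6c1, with log2 fold changes of -0.35 and -1.04. In MDSC-NP-Blk against MDSC, 9 were higher and 0 lower. The labels name the central nervous system as the tissue, but Gfap, Snap25, Rbfox3, Aqp4, and Olig2 had 0 counts in every library. The sum of that list (126 to 171 CPM) came almost wholly from Mbp and the microglia marker Tmem119. Scaled to the mean library, these averaged 1940 and 1456 counts in MDSC, 2133 and 1838 with blank NPs, and 1897 and 1392 in CITED. A list of myeloid progenitor and promyelocyte markers (Mpo, Elane, Ctsg, Myb, and others) moved with the groups, at 2897 to 3146 CPM in MDSC, 1545 to 1659 with blank NPs, and 410 to 456 in CITED, mostly from granule genes such as Mpo, and none of its 10 genes was at 0. Fewer cells of a type and less RNA per cell cannot be told apart in such bulk samples.

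In unmodified MDSCs the ring genes were the most abundant of the 10. Levels were compared between genes as CPM per kilobase of the canonical transcript, on which scale Mcm6 stood highest at 49.8 ± 0.353 (SD, n = 4) and Mcm7 followed at 44.5 ± 1.70. The level was 27.5 ± 0.550 for Mcm5, 26.3 ± 1.44 for Mcm2, 23.6 ± 0.528 for Mcm3, and 19.5 ± 0.818 for Mcm4. Outside the ring, Cdt1 was at 17.3 ± 1.43, Cdc6 at 5.42 ± 0.200, Mcm10 at 5.28 ± 0.255, and Orc1 at 1.80 ± 0.364. The ranges of neighbours in this order overlapped for Mcm5 and Mcm2, Mcm2 and Mcm3, Mcm4 and Cdt1, and Cdc6 and Mcm10, so those pairs could not be put in order.

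The order of the levels was not the same in the other groups. In CITED, Mcm6 (18.5 ± 0.645 CPM per kilobase) and Mcm7 (15.7 ± 0.507) were still highest, but Cdt1 came next at 12.9 ± 0.376, above Mcm2 (9.73 ± 0.391), Mcm4 (8.36 ± 0.630), Mcm3 (8.23 ± 0.397), and Mcm5 (7.80 ± 0.756). Mcm10 (1.83 ± 0.255), Cdc6 (1.29 ± 0.248), and Orc1 (0.544 ± 0.204) were lowest. In CITED the ranges overlapped for Mcm4 and Mcm3, Mcm3 and Mcm5, and Mcm10 and Cdc6, so those pairs could not be put in order. In MDSC-NP-Blk, Mcm6 was at 33.1 ± 2.61 and Mcm7 at 28.6 ± 2.08, and Cdt1, at 16.8 ± 0.553, overlapped in range with Mcm5 (15.4 ± 1.72), the next in order. Cdt1 was thus 7th of the 10 genes in MDSC and 3rd by mean in both groups with NPs. In MDSC-NP-Blk its range overlapped those of Mcm5, Mcm3, and Mcm2, so its place among these was not resolved. The ranges of Mcm6 and Mcm7 overlapped there too.

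**Figure D1:**
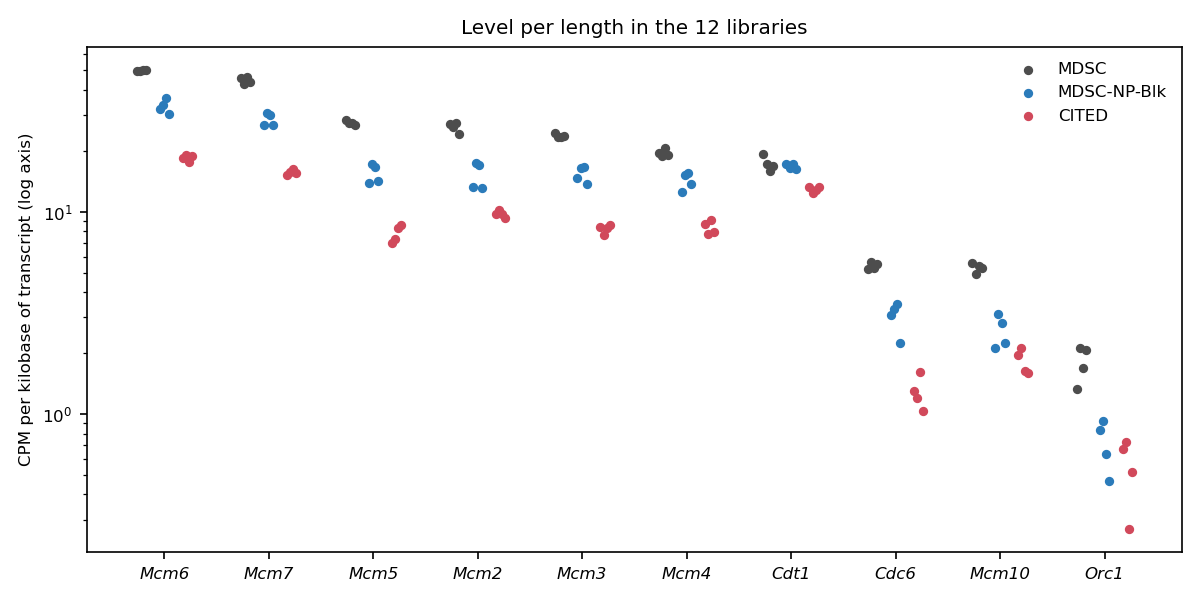
Level of each gene per kilobase of transcript (CPM per kilobase, log axis) in the 12 libraries, 1 point per library, with genes ordered by their mean in MDSC. Cdt1 lies below the ring genes by mean in MDSC (17.3 on average, overlapping Mcm4 in range) and above Mcm2 to Mcm5 in CITED (12.9 against at most 9.73).

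The question of the comparison of CITED with MDSC was how the complete cell product, with NPs and rapamycin, differed from unmodified cells. All 10 licensing genes were lower in CITED, and in each of them every CITED library lay below every MDSC library, as in 21.2% of the symbols tested. The difference was between 1.34-fold (Cdt1) and 4.22-fold (Cdc6). All 10 passed an adjusted p of 0.05 with edgeR's quasi-likelihood test, where 22.2% of the 17676 symbols tested passed in this direction, and 9 of 10, all but Cdt1, also changed by at least 2-fold (a log2 fold change of 1), where 6.7% of symbols did. The median log2 fold change was -1.51 over the 10 genes and -0.052 over all symbols.

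Among the ring genes, Mcm5 showed the largest difference. Its normalized count, which is the count scaled to the mean library, was 3196, 3102, 3091, and 3048 in the MDSC libraries, 1561, 1938, 1886, and 1597 in the MDSC-NP-Blk libraries, and 789, 833, 942, and 968 in CITED. The groups did not overlap, and the CITED mean was 3.51-fold lower than that of MDSC (log2 fold change -1.81 ± 0.072 SE, adjusted p = 9.96e-21). Mcm6, the most abundant, had 3605, 3632, 3655, and 3662 normalized counts in MDSC, 2336, 2453, 2663, and 2215 with blank NPs, and 1348, 1396, 1287, and 1372 in CITED. Its MDSC libraries lay within a narrow range, and it was 2.69-fold lower in CITED (-1.43 ± 0.058, adjusted p = 1.72e-20). Mcm4 showed the smallest difference of the ring, from 2456, 2373, 2607, and 2407 in MDSC to 1099, 978, 1147, and 1003 in CITED, 2.33-fold lower (-1.22 ± 0.069, adjusted p = 9.38e-17). Mcm2, Mcm3, and Mcm7 lay between these, with log2 fold changes of -1.43 ± 0.080, -1.52 ± 0.063, and -1.51 ± 0.060. Mcm3 had 3261, 3111, 3116, and 3142 normalized counts in MDSC, 1959, 2189, 2212, and 1829 in the MDSC-NP-Blk libraries, and 1119, 1026, 1103, and 1150 in CITED. Mcm7 had 3341, 3106, 3356, and 3175 in MDSC, 1957, 2243, 2178, and 1948 with blank NPs, and 1102, 1148, 1189, and 1127 in CITED. In both genes the 3 groups stood apart, with MDSC-NP-Blk between the others.

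Of the factors that place the ring on DNA, Cdc6 changed most and Cdt1 least. Cdc6 had 593, 643, 601, and 625 normalized counts in MDSC, 351, 373, 395, and 254 in the MDSC-NP-Blk libraries, and 148, 137, 184, and 117 in CITED. All 3 groups stood apart, and CITED was 4.22-fold lower than MDSC (-2.08 ± 0.12, adjusted p = 5.42e-16). Orc1 had the lowest counts and the widest spread, at 110, 174, 140, and 171 in MDSC, 68.7, 76.3, 52.0, and 38.5 with blank NPs, and 55.0, 59.8, 22.1, and 42.5 in CITED. Both groups with NPs lay below MDSC in every library while overlapping each other, and the difference between CITED and MDSC was 3.32-fold (-1.73 ± 0.25, adjusted p = 3.23e-07). Mcm10, which acts at helicase activation, fell by 2.90-fold, from 620, 551, 598, and 588 in MDSC to 218, 238, 183, and 178 in CITED (-1.53 ± 0.11, adjusted p = 1.62e-13).

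Cdt1 fell far less. Its normalized counts were 1048, 939, 863, and 916 in MDSC, 939, 894, 940, and 882 in the MDSC-NP-Blk libraries, and 718, 674, 698, and 717 in CITED. The MDSC and MDSC-NP-Blk libraries overlapped and the CITED libraries lay below both. The CITED mean was 1.34-fold below that of MDSC (-0.42 ± 0.074, adjusted p = 9.02e-06), within the 2-fold threshold.

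**Figure D2:**
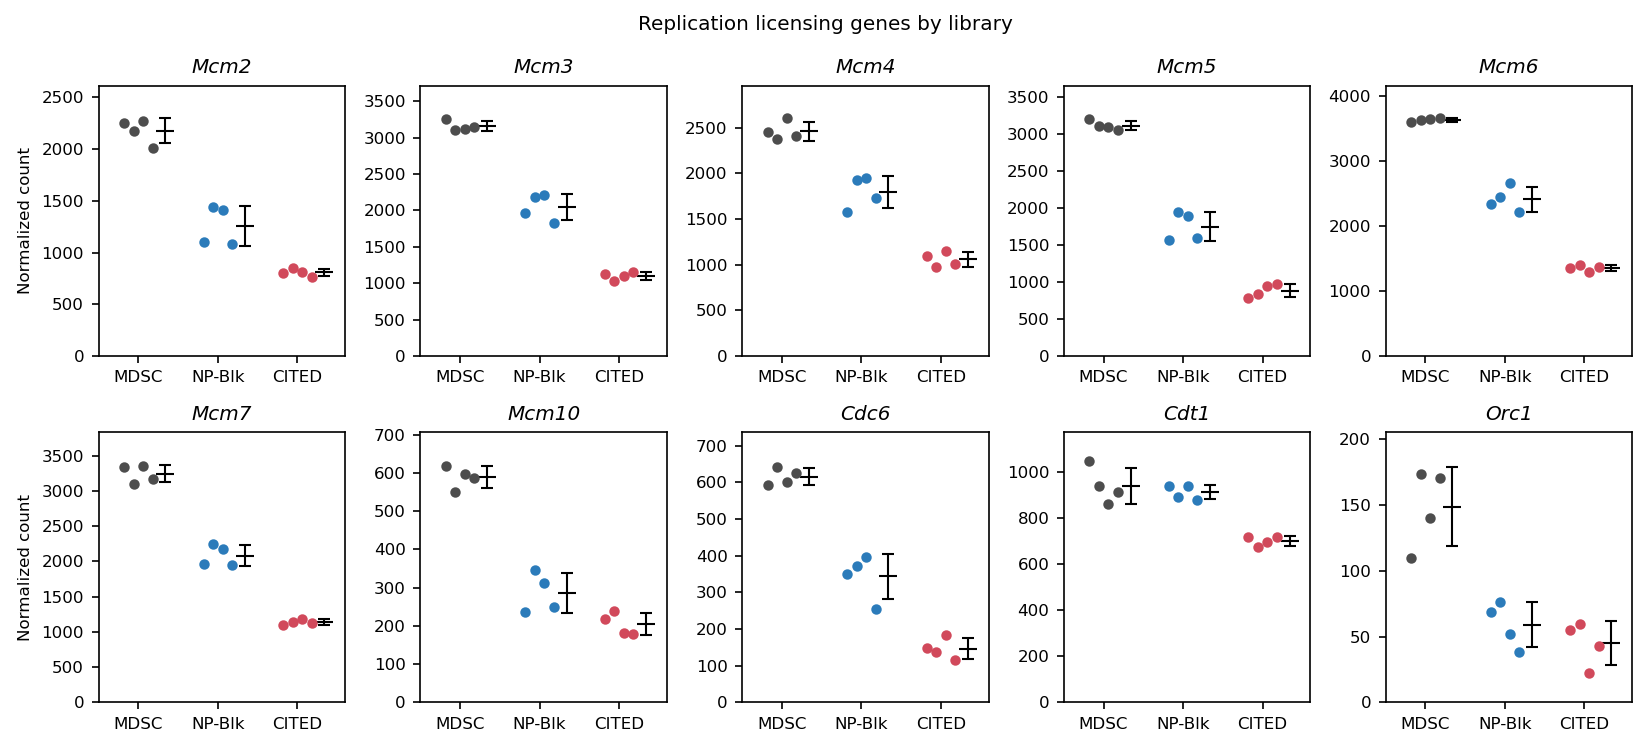
Normalized count of each licensing gene (linear axis from 0) in the 4 libraries of MDSC, MDSC-NP-Blk (NP-Blk), and CITED, with the mean ± SD beside the points. The 3 groups step down for Mcm2 to Mcm7 and Cdc6, whereas the MDSC-NP-Blk libraries of Cdt1 (882 to 940) overlap those of MDSC, and those of Mcm10 and Orc1 overlap those of CITED.

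Properties of the libraries moved with these results. Of the 10 genes of the progenitor list, 7 were lower and 0 higher in CITED than in MDSC and, in MDSC-NP-Blk, 7 lower and 1 higher, and their part in the result was not tested. The granule genes Mpo (-4.41), Elane (-3.27), Prtn3 (-2.17), and Ctsg, with Ms4a3, Myb, and Gfi1, were the 7, whereas the markers of earlier progenitors did not pass (Kit -0.14, Cd34 -0.022, and Flt3 -0.029), and Kit was higher in MDSC-NP-Blk than in MDSC (0.49, adjusted p = 1.09e-06). The Spearman correlation of expression, relative to the mean of all libraries, with transcript length was positive in MDSC (0.217 to 0.346), between -0.421 and 0.0926 in MDSC-NP-Blk, and negative in CITED (-0.342 to -0.187). With this trend removed by a loess curve for each library, the log2 fold change of CITED against MDSC was -1.70 for Mcm5, -1.35 for Mcm3, -1.07 for Mcm4, -1.96 for Cdc6, and -0.53 for Cdt1, and the same 10 genes passed the test. The share of mitochondrial counts was 1.88 to 2.13% in MDSC, 1.5 to 1.7% with blank NPs, and 1.4 to 1.5% in CITED, and its part was not tested.

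MDSC-NP-Blk was compared with unmodified MDSCs for the difference that came with blank NPs and their attachment, without drug. Whether the unmodified cells went through the same azido labelling, incubation, and washes is not stated, so particles and handling cannot be told apart. Most of the licensing genes were lower in MDSC-NP-Blk too, but by less than 2-fold. A total of 9 of the 10, all but Cdt1, passed the adjusted p, where 18.6% of symbols passed in this direction, and only Mcm10 and Orc1 also passed the fold threshold, as did 2.86% of symbols. The median log2 fold change was -0.71 over the 10 genes and -0.027 over all symbols.

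The ring genes fell by 1.37-fold (Mcm4, log2 fold change -0.45 ± 0.066, adjusted p = 8.17e-07) to 1.78-fold (Mcm5, -0.83 ± 0.069, adjusted p = 4.23e-12) in MDSC-NP-Blk. Mcm2 fell from 2252, 2177, 2271, and 2009 normalized counts in MDSC to 1102, 1444, 1413, and 1086 in MDSC-NP-Blk, which is 1.72-fold (-0.78 ± 0.077, adjusted p = 2.29e-10). The values for Mcm3, Mcm6, and Mcm7 were -0.62, -0.59, and -0.64, and for every ring gene all MDSC-NP-Blk libraries lay below all MDSC libraries, as in 17.4% of symbols. Orc1 showed the largest difference of the 10, 2.49-fold (-1.31 ± 0.24, adjusted p = 2.33e-05), and Mcm10 followed at 2.04-fold, with 237, 347, 313, and 251 normalized counts in MDSC-NP-Blk (-1.03 ± 0.11, adjusted p = 1.60e-09). Mcm10 stood near the fold threshold and fell to -0.95 and -0.97 without replicate 1 or replicate 4 of MDSC-NP-Blk, and to -0.95 with the length correction. Cdc6 was 1.79-fold lower (-0.84 ± 0.11, adjusted p = 1.96e-07). For Cdt1 the log2 fold change was -0.04 ± 0.072 (adjusted p = 0.672), and it was 0.012 without replicate 1 of MDSC, the highest of that group. With library size alone it was -0.31 (adjusted p = 5.52e-04), where the median of all symbols was -0.286, and with the length correction -0.14 (adjusted p = 0.111).

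The 4 MDSC-NP-Blk libraries were the most spread in these genes. In replicates 2 and 3, 9 of the 10 genes lay above the group mean, by 0.15 and 0.10 log2 units on average, whereas in replicate 4 none did (-0.19) and in replicate 1 there were 3 (-0.062). The same replicates 2 and 3 had the length correlations closest to those of MDSC (-0.047 and 0.093), and replicates 1 and 4 had -0.421 and -0.243. In MDSC and CITED the average deviation of a library stayed within -0.046 and 0.042 log2 units.

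CITED was compared with MDSC-NP-Blk for the difference that came with the rapamycin load, since both carry PLGA NPs. The licensing genes were lower again, with a median log2 fold change of -0.80 beside 0 over all symbols. A total of 9 of 10, all but Orc1, passed the adjusted p, beside 11.4% of symbols, and only Cdc6 passed the fold threshold, beside 2% of symbols. The libraries stood apart for 8 of the 10, all but Mcm10 and Orc1, beside 10.8% of symbols. This comparison and that of MDSC-NP-Blk with MDSC share the MDSC-NP-Blk libraries, so their values are set side by side and were not correlated.

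Cdc6 was 2.36-fold lower in CITED than in MDSC-NP-Blk (-1.24 ± 0.13, adjusted p = 1.89e-09). Mcm5 was next at 1.98-fold (-0.98 ± 0.072, adjusted p = 7.54e-13), at the edge of the threshold, which it passed without replicate 1 or 4 of MDSC-NP-Blk or replicate 3 or 4 of CITED (-1.01 to -1.03). The other ring genes ranged from -0.65 (Mcm2) to -0.90 (Mcm3). Cdt1 was 1.30-fold lower (-0.38 ± 0.074, adjusted p = 1.59e-04). Mcm10 passed at 1.42-fold (-0.51 ± 0.12, adjusted p = 0.00139), although its highest CITED library (238) exceeded the lowest MDSC-NP-Blk library (237). For Orc1 the difference was -0.42 ± 0.26 (adjusted p = 0.289), with overlapping libraries.

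**Figure D3:**
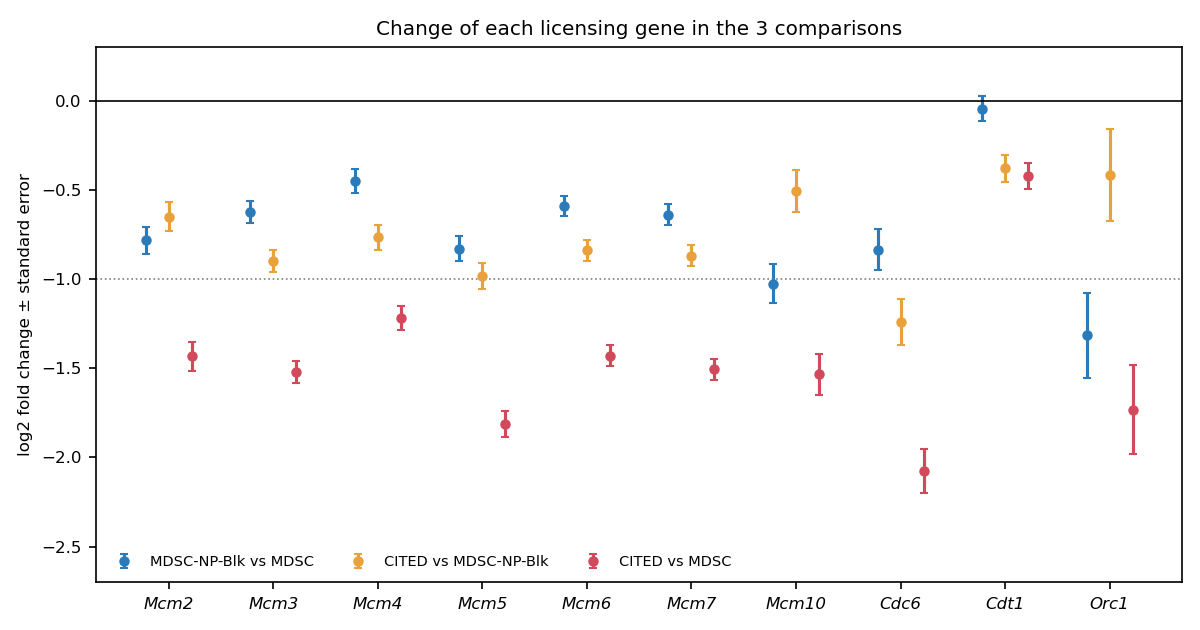
Log2 fold change (± standard error of the edgeR fit) of each licensing gene for the blank NPs (MDSC-NP-Blk against MDSC), the rapamycin load (CITED against MDSC-NP-Blk), and both (CITED against MDSC). The dotted line is the threshold of -1, which 9 of 10 genes pass for both together, 2 for the blank NPs, and 1 for the rapamycin load.

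Whether a gene fell more with the blank NPs or with the rapamycin load was tested as the difference of the 2 log2 fold changes, CITED against MDSC-NP-Blk minus MDSC-NP-Blk against MDSC. Of the 10 genes, 1 passed, where 22.8% of all symbols passed in either direction. That gene was Mcm4, at -0.31 ± 0.12 (adjusted p = 0.0478), which is a larger fall with the rapamycin load. It no longer passed with library size alone (-0.065, adjusted p = 0.764), the DESeq2 test (-0.30, adjusted p = 0.0540), or the size factors of DESeq2 in edgeR (-0.30), nor without replicate 1 (-0.31), 2 (-0.30), or 4 (-0.30) of MDSC, replicate 2 (-0.24), 3 (-0.23), or 4 (-0.34) of MDSC-NP-Blk, or replicate 2 (-0.28) or 4 (-0.29) of CITED. The difference was -0.34 ± 0.13 for Cdt1 (adjusted p = 0.0519), 0.52 ± 0.20 for Mcm10 (adjusted p = 0.0579), -0.27 ± 0.11 for Mcm3 (adjusted p = 0.0591), and 0.90 ± 0.43 for Orc1 (adjusted p = 0.147). The sign for Mcm10 and Orc1 is that of a larger fall with the blank NPs, and none of these 4 genes passed the test. All 4 passed in some alternatives, of which the following is a part. Mcm10 passed with the replicate block (0.54, adjusted p = 0.0169), without a count filter (adjusted p = 0.0480), and with library size alone (0.77, adjusted p = 0.00356). Orc1 passed with library size alone (1.15, adjusted p = 0.0455). Mcm3 passed with the length correction (-0.33, adjusted p = 0.00760) and filterByExpr (adjusted p = 0.0434). Cdt1 passed with DESeq2 (-0.32, adjusted p = 0.0348) and filterByExpr (adjusted p = 0.0287). Of 19 alternatives, left-out libraries included, the result stayed on its side of the adjusted p of 0.05 in 8 for Mcm4 and 11 for Mcm10. The number was 15 for Mcm3, 16 for Cdt1, and 17 for Orc1.

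Composition among the 10 genes was examined by setting each against the summed counts of Mcm2 to Mcm7 in the same library, a scale that does not depend on the library size. It was added after seeing the values above. Cdt1 amounted to 5.29% ± 0.419 of the ring genes in MDSC (SD, n = 4), 8.10% ± 0.744 with blank NPs, and 11.1% ± 0.329 in CITED. The lowest value in CITED (10.8%) was above the highest in MDSC-NP-Blk (8.95%), which in turn had its lowest value (7.34%) above the highest in MDSC (5.79%). In the edgeR fit on this scale, Cdt1 was 1.06 ± 0.090 log2 units higher in CITED than in MDSC (adjusted p = 1.51e-12), 0.61 ± 0.089 higher in MDSC-NP-Blk than in MDSC (adjusted p = 4.01e-07), and 0.45 ± 0.090 higher in CITED than in MDSC-NP-Blk (adjusted p = 4.18e-05). The ring genes themselves fell, so any symbol that fell less than they did rises on this scale. These values therefore say only that Cdt1 fell less than the ring. On the scale used before, the median log2 fold change of all symbols in CITED against MDSC was -0.052, above the -0.42 of Cdt1. The share of all symbols that passed on the ring scale was not counted.

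Cdc6 moved the other way. It was 3.46% ± 0.195 of the ring genes in MDSC, 3.02% ± 0.399 with blank NPs, and 2.30% ± 0.419 in CITED, a relative log2 change of -0.59 ± 0.13 for CITED against MDSC (adjusted p = 1.17e-04) and of -0.39 ± 0.13 for CITED against MDSC-NP-Blk (adjusted p = 0.00955). For MDSC-NP-Blk against MDSC Cdc6 did not pass (-0.20 ± 0.12, adjusted p = 0.174), and its MDSC-NP-Blk libraries overlapped those of both other groups. Mcm10 fell with the ring in CITED against MDSC (-0.04 ± 0.12, adjusted p = 0.763), but it was relatively lower in MDSC-NP-Blk than in MDSC (-0.39 ± 0.11, adjusted p = 0.00377) and relatively higher in CITED than in MDSC-NP-Blk (0.35 ± 0.12, adjusted p = 0.0127). Orc1 was relatively lower in MDSC-NP-Blk than in MDSC (-0.68 ± 0.25, adjusted p = 0.0218) and did not pass in the other comparisons.

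Within the ring the proportions moved less. Mcm5 was relatively lower in CITED than in MDSC, from 17.5% ± 0.286 to 13.9% ± 1.15 of the sum (-0.33 ± 0.074, adjusted p = 2.03e-04), and Mcm4 was relatively higher, from 13.8% ± 0.400 to 16.7% ± 1.11 (0.27 ± 0.074, adjusted p = 0.00161). Both also passed in MDSC-NP-Blk against MDSC, with -0.19 for Mcm5 (adjusted p = 0.0308) and 0.19 for Mcm4 (adjusted p = 0.0235). Each ring gene is part of the sum, so a lower share of any of them raises the shares of the others. The opposite moves of Mcm5 and Mcm4 are therefore not independent results. Mcm2 passed only in CITED against MDSC-NP-Blk, where it was relatively higher (0.20 ± 0.079, adjusted p = 0.0297). Mcm3, Mcm6, and Mcm7 did not pass in any of the 3 comparisons on this scale, with log2 values between -0.057 and 0.059. The log2 ratio of each pair of the 10 genes was also compared between groups. The exact permutation test over 4 against 4 libraries cannot go below p = 0.0286, and over the 135 ratios tested the smallest adjusted p was 0.0677, so none passed.

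**Figure D4:**
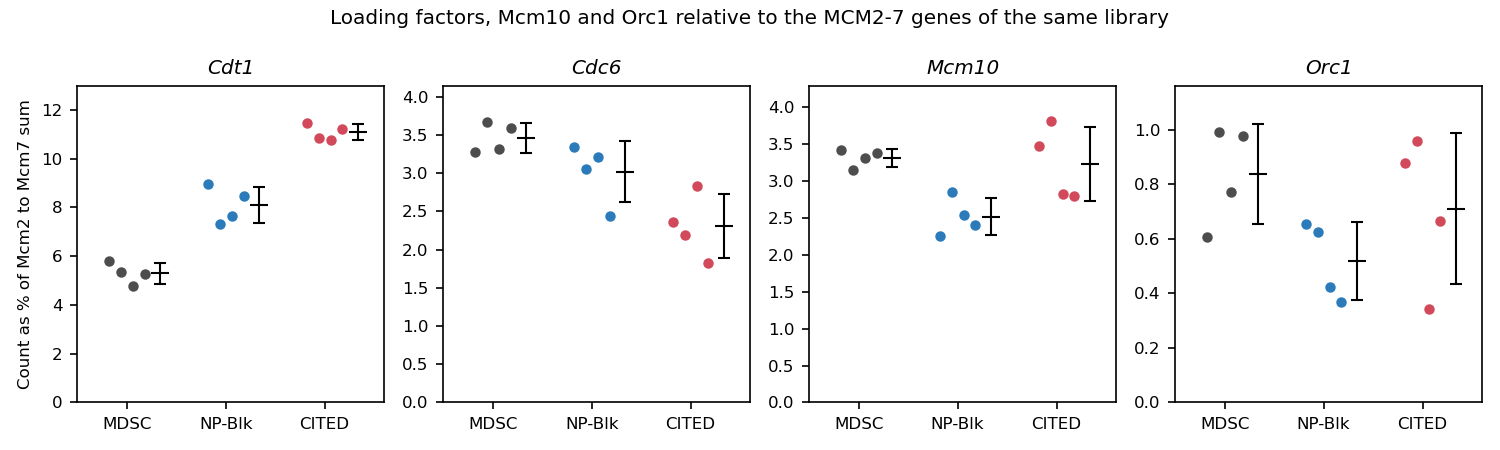
Counts of Cdt1, Cdc6, Mcm10, and Orc1 as percent of the summed counts of Mcm2 to Mcm7 in the same library, with the mean ± SD (n = 4) beside the points. Cdt1 steps up from 5.29% (MDSC) to 8.10% (MDSC-NP-Blk) and 11.1% (CITED) without overlap. Cdc6 is lower in CITED (2.30%) than in MDSC (3.46%), and its MDSC-NP-Blk libraries overlap both.

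Other genes of the pathway were read from lists grouped by role, 69 genes beside the 10. In CITED against MDSC, 52 of the 69 were lower and 7 higher at the adjusted p, where 22.2% of all symbols were lower and 22.2% higher. A total of 26 lower and 1 higher also passed the fold threshold, beside 6.7% and 3.28% of symbols. With the blank NPs alone the counts were 44 lower and 5 higher, beside 18.6% and 19.9% of symbols, and with CITED set against MDSC-NP-Blk they were 39 lower and 3 higher, beside 11.4% and 10.5%. The median log2 fold changes of the 69 were -0.68, -0.45, and -0.27 in these 3 comparisons.

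The other subunits of the origin recognition complex fell along with Orc1. Of the 7 genes of that list, 6 were lower and 1 higher in CITED than in MDSC, with the fold threshold passed by Orc1 and Orc6 (-1.24, adjusted p = 1.28e-11). Orc2 and Orc3, which form the core of the complex, were lower by -0.89 each, and Lrwd1, a protein that binds the complex on chromatin, was higher (0.30, adjusted p = 9.87e-04). The other 5 subunits had log2 fold changes of -0.49 to -1.24, beside -1.73 for Orc1, and these differences between genes were not tested.

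The genes that restrain licensing or remove Cdt1 fell as well. Of 11 such genes, 9 were lower and 0 higher in CITED than in MDSC. Gmnn encodes geminin, which binds Cdt1 and blocks loading, and it had 923, 744, and 527 normalized counts on average in MDSC, MDSC-NP-Blk, and CITED (-0.81 for CITED against MDSC, adjusted p = 6.02e-10). Dtl and Skp2, the substrate receptors of the ubiquitin ligases that mark Cdt1 for destruction, were lower by -2.15 (adjusted p = 1.21e-18) and -1.79 (adjusted p = 4.16e-14). Pcna, the sliding clamp on which the ligase with Dtl acts, was lower by -0.84, and Ccnf and Fbxo5, both of the F-box family, by -1.62 and -1.70. Parts that these ligases use for many other substrates as well had smaller values. Ddb1 (-0.30, adjusted p = 1.77e-06), Cul1 (-0.35, adjusted p = 1.87e-05), and Cul4b (-0.31, adjusted p = 6.13e-04) were lower, and Cul4a (-0.10, adjusted p = 0.196) and Skp1 (-0.02, adjusted p = 0.816) did not pass.

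Origin firing factors, most of which help convert the loaded ring into an active helicase, showed 13 of 14 lower and 1 higher in CITED than in MDSC, with a median of -1.38. Ticrr, which with Mtbp and Topbp1 brings Cdc45 to the origin, fell from 637 to 120 normalized counts on average (-2.40, adjusted p = 4.30e-18). Cdc7, the kinase that phosphorylates the loaded ring, was lower by a log2 fold change of -2.27, and the values were -1.92 for Topbp1, -1.77 for Gins1, and -1.68 for Cdc45. Other members of the same helicase assembly fell much less, such as Gins2 (-0.45) and Gins4 (-0.23, adjusted p = 0.0395), and Donson was higher (0.33, adjusted p = 0.0126). For Mtbp the fall lay between MDSC and MDSC-NP-Blk (-1.28), and the difference of the log2 fold changes was 1.12 (adjusted p = 4.32e-04).

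Among 8 genes of the S phase kinases, 6 were lower and 2 higher in CITED than in MDSC. The cyclins Ccne2 (-2.30) and Ccna2 (-1.68), the kinase Cdk1 (-1.39), and the phosphatase Cdc25a (-1.76), which activates these kinases, were lower. The inhibitors Cdkn1a (p21) and Cdkn1b (p27) were higher, by 1.05 (adjusted p = 1.26e-18) and 0.21 (adjusted p = 0.00225). In MDSC-NP-Blk they were also higher than in MDSC, by 0.86 and 0.52.

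Of 17 genes of the E2F and pocket protein families and of their partners, such as Lin9, 11 were lower and 2 higher in CITED than in MDSC. The largest changes were those of the repressors E2f7 (-2.24) and E2f8 (-2.28), themselves known targets of E2F. Of the activators, E2f1 was at -0.32 (adjusted p = 2.84e-04), E2f2 at -0.62 (adjusted p = 8.78e-11), and E2f3 at -0.39 (adjusted p = 3.24e-04). Of the pocket proteins, which hold E2F in check, Rbl1 was lower (-1.44, adjusted p = 9.94e-17), and Rb1 (-0.07, adjusted p = 0.328) and Rbl2 (-0.0094, adjusted p = 0.925) did not pass. Of 5 relatives and partners of the ring genes outside the ring, 4 were lower and 0 higher, with a median of -1.39. Mcm8 and its partner Hrob were at -1.74 and -1.59 and Mcmbp, which binds ring proteins off chromatin, at -0.27 (adjusted p = 4.67e-04). In the list of chromatin helpers of loading, such as subunits of the Kat7 acetyltransferase complex, 4 of 8 were lower and 1 higher, beside 22.2% of symbols in each direction, with a median of -0.097 and Ing4 at 0.55.

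**Figure D5:**
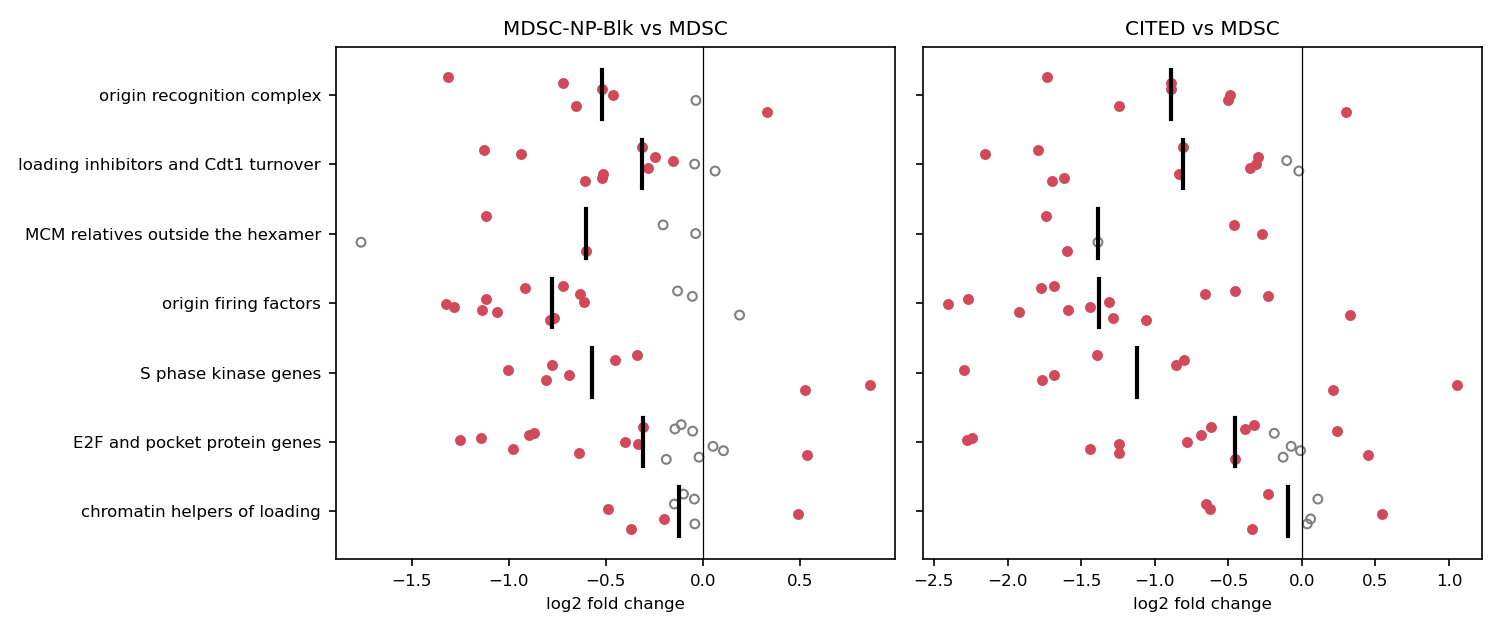
Log2 fold change of each gene in 7 lists of the pathway (rows) in the comparisons of the blank NPs and of CITED with unmodified MDSCs, with Orc1 the only one of the 10 licensing genes included. Filled points passed an adjusted p of 0.05, open points did not, and black bars are list medians, which for origin firing factors and chromatin helpers are -1.38 and -0.097 in CITED against MDSC.

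The genes whose pattern over the 12 libraries was most like the mean of the 10 were taken from 10545 other symbols, using Pearson's r as a measure of likeness. The libraries fall into 3 groups, so r mainly reflects the steps between groups. The nearest were Top2a (topoisomerase II alpha, 0.997), Asf1b, Ccnb1, and Ccna2 (0.996 for Ccna2), then Ect2, Tuba4a, C1qa, Kif11, Rrm1, and Rrm2 (0.994 for Rrm2). Asf1b is a histone chaperone, Kif11 a spindle motor, and Rrm1 and Rrm2 the subunits of ribonucleotide reductase. C1qa, a complement gene, is no cell cycle gene, and its mean normalized count was 559 in MDSC, 177 with blank NPs, and 33.8 in CITED. For the licensing genes themselves r with their mean was 0.848 for Orc1, 0.876 for Cdt1, and 0.953 to 0.996 for the other 8.

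Mcm4, Mcm7, and Orc1 lie head to head with a protein-coding gene that starts within 1000 bases on the opposite strand, and the counts of these neighbours were compared with theirs. Gm64467, which the annotation places head to head with Cdt1, was not analysed here. Prkdc, the catalytic subunit of DNA-dependent protein kinase, starts 489 bases from Mcm4. It had 678, 382, 580, and 612 normalized counts in MDSC, 248, 277, 340, and 282 with blank NPs, and 261, 263, 175, and 202 in the CITED libraries. Prkdc fell with Mcm4 in CITED against MDSC (-1.33 ± 0.14, adjusted p = 5.35e-10) and in MDSC-NP-Blk against MDSC (-0.97 ± 0.14, adjusted p = 2.95e-07, beside -0.45 for Mcm4). In CITED against MDSC-NP-Blk it did not pass (-0.36 ± 0.14, adjusted p = 0.0771), whereas Mcm4 did (-0.77 ± 0.069, adjusted p = 9.08e-11). The ratio of Mcm4 to Prkdc overlapped between all groups.

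Mcm7 and Orc1 parted from their neighbours. Ap4m1, a subunit of an adaptor complex of vesicle traffic, starts 447 bases from Mcm7 and had 527, 497, and 448 normalized counts on average in the order MDSC, MDSC-NP-Blk, CITED (-0.23 ± 0.084 for CITED against MDSC, adjusted p = 0.0213). Prpf38a, a splicing factor, starts 55 bases from Orc1 and had 650, 645, and 648 (-0.0041 ± 0.085, adjusted p = 0.990). The log2 ratio of Mcm7 to Ap4m1 was 1.27 lower in CITED than in MDSC, and that of Orc1 to Prpf38a 1.79 lower, without overlap of the libraries in either. The exact permutation p was 0.0286 for both, the smallest that 4 against 4 allows, and 0.0514 after adjustment over the 9 ratios tested.

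Reads could be shared with near-identical copies for some of these genes. Of the 31-base words of the Mcm7 transcript, 37.6% also occur in Gm5487, which had 0 to 7 counts per library beside 881 to 4259 for Mcm7. For Cdc6, 10.1% of words are shared with Gm9430, which had 0 counts in all libraries. The share was at most 4.03% for the other 8 genes.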

How the data were processed

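Poly(A) RNA was sequenced as paired-end reads, and the table that the authors deposited holds raw counts, in whole numbers, by gene symbol for 12 libraries, made with Salmon 1.4.0 against GENCODE transcripts of GRCm39 and summed with tximport, without normalization or filtering. Groups and replicate numbers came from the sample titles. A row without a symbol (0 counts) was dropped.

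Symbols were kept where their counts summed to at least 2, and the resulting 17676 were fitted together in edgeR 4.0.16 (R 4.3.3) with TMM factors and the group as the only term, and tested with glmQLFit and glmQLFTest, with Benjamini-Hochberg adjustment over all of them. A call needed an adjusted p below 0.05 and, where stated, a log2 fold change of 1 or more in absolute size. SE is the log2 fold change over the square root of F. A library's floor of 3 counts, 7.92e-06 to 1.46e-05% of it, covers counting error only.

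The 10 genes and all lists were chosen with earlier results of these data known. Genes named are the 10, listed pathway genes called or with the 2 lowest p-values in a comparison, the 10 most similar symbols with a mean normalized count of at least 50 (r of log2 CPM, prior count 2), protein-coding neighbours starting within 1000 bases, and markers. Gmnn, E2f1, E2f2, E2f3, Rb1, Rbl2, Mcmbp, Lrwd1, Donson, Gins2, Gins4, Ddb1, Cul1, Cul4a, Cul4b, Skp1, Orc2, and Cdkn1b were named for their roles where that rule did not hold, after their values were seen. The marker lists, other than those given above, were of T cells (7 of 8 genes under 1 CPM, summed 2.18 to 3.51 CPM), B cells (3.15 to 15.3 CPM, 5 of 6 genes lower in CITED than in MDSC), NK cells (4.90 to 24.7 CPM, mostly Nkg7), erythroid cells (7 of 7 under 1 CPM), megakaryocytes (191 to 337 CPM), mast cells and basophils (282 to 560 CPM), and dendritic cells (328 to 503 CPM).

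Transcripts and promoters were read from the GRCm39 genome and its GENCODE annotation, which may not be the release the authors used. Levels per kilobase used the canonical transcript. Alternatives were DESeq2 1.42.0 and its size factors, library size alone, other filters, fits on 8 libraries, a replicate block, a length correction (loess, span 0.5), other thresholds, and each library left out. The scale of Mcm2 to Mcm7, the ratios between genes, and the share of symbols whose groups do not overlap were added after seeing the data. On simulated counts for 17283 genes with 200 changed, edgeR called 205, among them all 200, in the comparison of CITED with MDSC. Pairs of libraries within a group differed beyond counting noise (chi-square per gene of 4.72 to 21.8), so none was a copy. Figures used Python 3.11.15 and matplotlib 3.10.9.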

Additional observations from a re-analysis of the deposited data

Results flagged for a closer look

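Of 39 sets of 4 libraries examined, which were the 10 licensing genes and their 3 divergent neighbours in each group, 1 had a library far from the others. Ap4m1, the neighbour of Mcm7, had 471 normalized counts in replicate 2 of MDSC, whereas the other 3 libraries lay between 542 and 551. The gap was 0.887 of the whole range, above Dixon's critical value for 4 samples, and about 5% of such sets pass it by chance. None of the licensing genes had such a library.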

How the results depend on the processing

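The calls of CITED against MDSC held 9 of the 10 genes in every alternative, the replicate block and each left-out library included, except that 10 passed with the adjusted p alone. Of the log2 fold changes of the 10 genes over all alternatives, 752 kept direction and side of the adjusted p of 0.05, 23 passed it, 11 no longer did, and 4 turned. This count takes no account of the fold threshold, which library size alone carried Mcm2 (-1.05), Mcm5 (-1.09), and Cdc6 (-1.10) past in MDSC-NP-Blk against MDSC. With library size alone, which moved the median of all symbols to -0.323 in CITED and -0.286 in MDSC-NP-Blk, both against MDSC, the difference of the 2 fold changes turned to 0.097 for Mcm5, 0.000191 for Mcm6, and 0.021 for Mcm7, and shrank to -0.065 for Mcm4. Cdt1 in MDSC-NP-Blk against MDSC ranged from -0.084 to 0.012 with 1 library left out and was -0.31 with library size alone. The cause was not tested.

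The number of licensing genes that passed the difference of fold changes moved from 1 to 2 with DESeq2, 0 with its size factors in edgeR, 3 with library size alone, 2 without a count filter, 4 with filterByExpr, 2 with the replicate block, 2 with the length correction, and 0 to 3 with 1 library left out (0 without replicate 4 of MDSC or 2 of CITED, 2 without replicate 1 of MDSC-NP-Blk, 3 without replicate 4 of MDSC-NP-Blk or 3 of CITED). Beside Mcm4 and the 4 genes given in the report, Mcm6 passed in alternatives that included DESeq2 and filterByExpr, and Mcm2 with library size alone. Cdc6 passed in an alternative not named here, as it kept direction and side of the adjusted p in 18 of 19. Those called in MDSC-NP-Blk against MDSC moved from 2 to 5 with library size alone and to 1 with the length correction, and ranged from 1 to 2 with 1 library left out (1 without replicate 1 or 4 of MDSC-NP-Blk). In CITED against MDSC-NP-Blk that range was 1 to 2, beside 1 in the report. Under glmTreat, a test against the fold threshold itself, 0 licensing genes passed in either of these comparisons, and with the adjusted p alone 9 did in each. Over all symbols, in both directions, 1765 were called for CITED against MDSC, 838 for the blank NPs, and 469 for the rapamycin load, with 722, 143, and 59 under glmTreat and 7862, 6815, and 3883 with the adjusted p alone.

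Replicate numbers were shared between groups, and same-numbered libraries showed little common deviation (mean r over 10555 genes of -0.017, 0.011, and 0.051 for the 3 pairs of groups). For MDSC-NP-Blk and CITED the same-numbered values ranged from -0.058 to 0.140, beside a mean of -0.017 for libraries of different number. Whether same-numbered libraries came from a shared preparation is not stated, and so few correlations cannot settle it. With the replicate block 1621, 766, and 441 symbols were called in the 3 comparisons. Depth limits Orc1 most, with 20 to 183 raw counts per library.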
